A study of Mus musculus with 16 samples.

Results

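The miR-17-92 cluster and its miR-106b-25 paralog were followed across 16 mouse liver samples measured on one-colour Agilent miRNA arrays. The 9 members were taken by name, by exact match of the array's gene name. They were mmu-miR-17, mmu-miR-18a, mmu-miR-19a, mmu-miR-20a, mmu-miR-19b and mmu-miR-92a of miR-17-92, and mmu-miR-106b, mmu-miR-93 and mmu-miR-25 of miR-106b-25. They are 9 of the 566 mouse miRNAs on the array, 6 from the first cluster and 3 from the second.

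The tissue was liver from male mice of C3H/HeJ, a strain prone to liver tumours, in a study of tumours initiated with the carcinogen diethylnitrosamine (DEN). The groups were 7 Ctnnb1-mutated tumours (replicates 1 to 7) and 3 non-tumour control livers (replicates 4 to 6) of mice given phenobarbital, a liver tumour promoter, and 3 Ha-ras-mutated tumours (replicates 1 to 3) and 3 non-tumour control livers (replicates 1 to 3) of mice given none. The last group is called untreated for the missing phenobarbital only. Ctnnb1 is the gene of beta-catenin, through which Wnt signals reach transcription. Ha-ras is the gene of a GTPase that activates the MAP kinase cascade. Per the design text, DEN was injected once, into mice 2 weeks or 6 weeks old, in a dose of 10 or 90 µg per g, and after a further 2 weeks came a diet with 0.05% phenobarbital or without it for 28 to 36 weeks. The labels give a treatment of 27 weeks, whereas their protocol gives phenobarbital in drinking water for 28 days. The sources used here do not tie a dose, an age or a duration to a sample, or say whether the controls received DEN. They also leave unstated whether a group's samples were separate animals, so the p-values measure the spread between these samples, which may be technical. Each tumour genotype occurred under only 1 of the diets, so genotype and diet cannot be told apart when the tumour types are compared.

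MicroRNAs of a cluster are cut from one primary transcript, and each mature miRNA guides silencing complexes to transcripts that pair with its seed, bases 2 to 8. miR-17-92 is transcribed under MYC and E2F factors and is known as an oncogenic cluster in lymphoma and other tumours. Its miR-17 family represses Cdkn1a and E2f transcripts. miR-106b-25 lies in an intron of Mcm7, a subunit of the replicative helicase, and shares its transcription. Another paralog, miR-106a-363, lies on the X chromosome.

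The mature sequences below are shown because the seed families run across the clusters, so that members of different clusters with the same seed can be compared. They are RefSeq's (GRCm38.p6), to which all 9 members matched, written 5′ to 3′ with the seed in capitals. The first 4 share the miR-17 seed, the next is miR-18a, then the miR-19 pair, and the last 2 share the miR-92 seed.
mmu-miR-17-5p (miR-17-92): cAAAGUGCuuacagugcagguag
mmu-miR-20a-5p (miR-17-92): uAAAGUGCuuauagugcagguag
mmu-miR-106b-5p (miR-106b-25): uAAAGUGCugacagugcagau
mmu-miR-93-5p (miR-106b-25): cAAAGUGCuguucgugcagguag
mmu-miR-18a-5p (miR-17-92): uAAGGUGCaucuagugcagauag
mmu-miR-19a-3p (miR-17-92): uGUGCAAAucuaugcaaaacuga
mmu-miR-19b-3p (miR-17-92): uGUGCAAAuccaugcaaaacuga
mmu-miR-92a-3p (miR-17-92): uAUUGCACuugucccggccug
mmu-miR-25-3p (miR-106b-25): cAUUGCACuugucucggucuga

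In GRCm38.p6 the 6 hairpins of miR-17-92 spanned 836 bases of the plus strand, chr14:115043671-115044506, and the 3 hairpins of miR-106b-25 spanned 498 bases of the minus strand, chr5:138165321-138165818, within Mcm7. Aligned from the 5′ end, miR-17 and miR-20a differed at 2 of 23 bases, miR-20a and miR-93 at 4 of 23, miR-20a and miR-106b at 3 of 21, miR-92a and miR-25 at 3 of 21, and miR-19a and miR-19b at 1 of 23. The seed of miR-18a differed from that of miR-17 at 1 base. Mature miR-19b and miR-92a are each encoded at 2 loci with identical sequence, 1 in miR-17-92 and 1 on the X chromosome, and the array cannot tell the loci apart. How far the probes separate members that differ by so few bases was not tested.

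**Figure D1:**
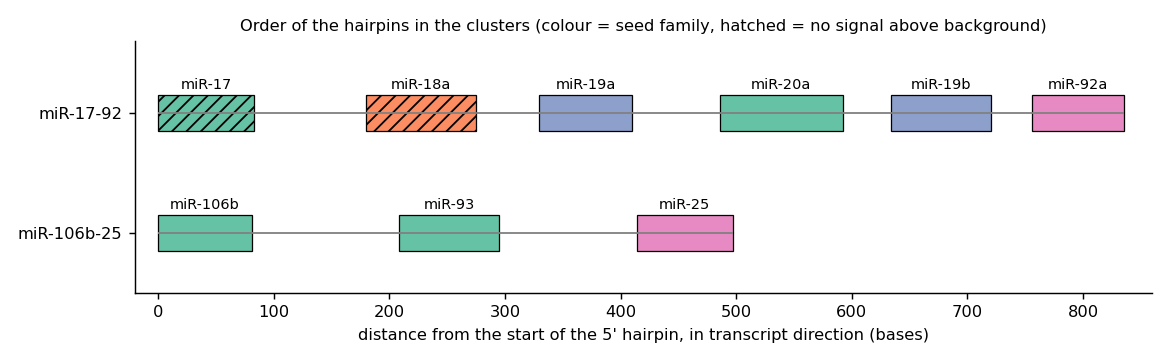
Order of the hairpins in miR-17-92 (upper line) and miR-106b-25 (lower line), drawn to scale as distance in bases from the first hairpin in transcript direction. Boxes of one colour share a seed, and the 2 hatched boxes, miR-17 and miR-18a, are the members that gave no signal well above background.

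Levels are log2 of the background-subtracted array intensity, scaled by the 75th percentile of the 117 mouse probes that were detected throughout. Signals were raised to a floor of 24.96, or 4.64 on the log2 scale, and each member is the mean of its 2 probes. Between 83 and 117 miRNAs were detected on an array, and levels across miRNAs correlated between arrays of a group at 0.890 to 0.993. The hepatocyte miRNAs miR-122, miR-192 and miR-194 were measured in all groups, and 0 of 4 miRNAs of muscle, neurons and pancreatic islets (miR-1, miR-133a, miR-124 and miR-375) were detected on any array. The arrays were on 3 slides. All 7 Ctnnb1 tumours shared slide 1 with Ha-ras tumour replicate 1; slide 2 held Ha-ras tumour replicates 2 and 3, phenobarbital control replicates 4 and 5 and untreated control replicate 1; slide 3 held phenobarbital control replicate 6 and untreated control replicates 2 and 3. Because probes differ in brightness, levels are compared between groups for 1 miRNA and not between miRNAs.

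Of the 9 members, 7 were measured: miR-19a, miR-20a, miR-19b and miR-92a of miR-17-92, and all 3 members of miR-106b-25. They were among the 96 miRNAs tested, each of which was detected throughout 1 group or more. miR-17 and miR-18a, the first hairpins of miR-17-92, did not rise well above background on a single array. The highest scaled signal of a miR-17 probe was 2.18 and that of a miR-18a probe was 19.9, both below the floor, so neither has a fold change here. The same holds for the passenger strands: 7 of the 9 members' star strands were on the array and 0 were detected. Bulk tissue cannot tell fewer cells of a type from less RNA per cell, which holds for every value here.

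miR-92a, the last hairpin of miR-17-92 and a member of the miR-92 seed family, was the member with the largest difference between Ha-ras tumours and untreated controls. Its level was 5.85, 6.05 and 6.38 in Ha-ras tumours and 6.85, 7.04 and 6.74 in untreated controls, in replicate order. It was 6.77, 6.95 and 6.81 in phenobarbital controls, and in the Ctnnb1 tumours the lowest, median and highest levels were 6.35, 6.85 and 7.28. The 3 Ha-ras tumours lay below all 6 controls, and 1 of them, replicate 3, lay just above the lowest Ctnnb1 tumour. In order, the group means were 6.87 ± 0.15 (SD, n = 3) in untreated controls, 6.85 ± 0.09 (n = 3) in phenobarbital controls, 6.84 ± 0.32 (n = 7) in Ctnnb1 tumours and 6.09 ± 0.27 (n = 3) in Ha-ras tumours, the first 3 differing by less than their spread.

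miR-19b, a member of the miR-19 seed family, read 6.88, 6.87 and 7.37 in Ha-ras tumours and 7.53, 7.74 and 7.07 in untreated controls. Phenobarbital controls read 7.59, 7.76 and 7.57, and the Ctnnb1 tumours ran from 7.17 over a median of 7.62 to 8.06. The Ha-ras tumours and the untreated controls overlapped through Ha-ras tumour replicate 3. miR-19a, which differs from miR-19b at 1 base, was dim: 4.78, 4.69 and 5.04 in Ha-ras tumours, 4.90, 5.13 and 4.90 in untreated controls, and 5.06, 5.51 and 5.27 in phenobarbital controls. Its Ctnnb1 tumours ran from 4.94 over 5.53 to 6.05, and 5 of the 7 lay above every Ha-ras tumour and untreated control. One of its probes was at the floor on 6 of 16 arrays.

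miR-20a, the only measured miR-17-seed member of miR-17-92, read 5.88, 6.08 and 6.11 in Ha-ras tumours and 6.23, 6.43 and 6.34 in untreated controls. These groups did not overlap, but lay close together. Phenobarbital controls read 6.31, 6.54 and 6.27. The Ctnnb1 tumours ran from 5.85 over 6.29 to 7.08, a spread that covered all other samples.

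In miR-106b-25 the Ha-ras tumours were not the lowest group. miR-106b, the first hairpin, read 5.71, 5.94 and 6.33 in Ha-ras tumours and 5.19, 5.84 and 5.35 in untreated controls. Phenobarbital controls read 5.56, 5.74 and 5.33, and Ctnnb1 tumours ran from 5.21 over 5.63 to 6.28. Here the Ha-ras mean, 5.99 ± 0.31 (SD, n = 3), was the highest of the 4 groups, and all groups overlapped. The dimmer probe of miR-106b was at the floor on 4 of 16 arrays. miR-93 had group means of 5.12 to 5.25 and miR-25 of 5.20 to 5.40, and for both all groups overlapped. One of the 2 probes of miR-93 and 1 of miR-25 were at the floor on all 16 arrays, so their averaged log2 differences are those of the brighter probe divided by 2.

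**Figure D2:**
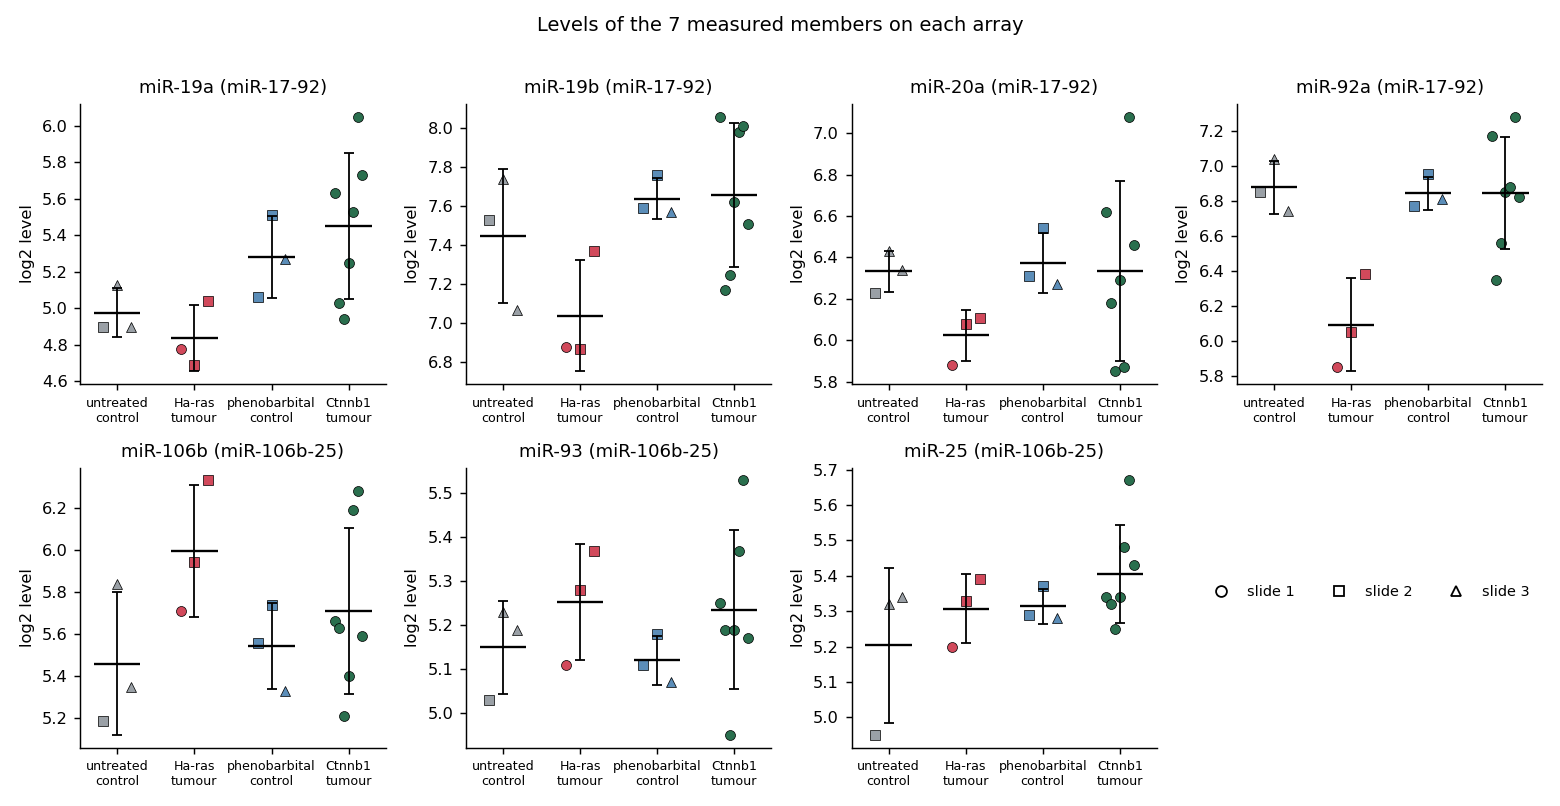
Log2 level (vertical axis, a separate scale in each panel) of the 7 measured members on each array, by group; the marker shape gives the slide, and bars give the mean ± SD (n = 7 Ctnnb1 tumours, 3 in the other groups). The 3 Ha-ras tumours lie below all controls for miR-92a, between 5.85 and 6.38, whereas for miR-106b they lie between 5.71 and 6.33, in and above the range of the controls.

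The Ha-ras tumours were compared with the untreated controls. This sets tumour against non-tumour liver, so the mutation cannot be told apart from the tumour state. miR-92a fell by 0.78 on the log2 scale (SE 0.21), 1.72-fold lower, with a limma adjusted p of 0.0146, and its probes taken singly fell by 0.71 and 0.86. It was the only member of 7 called, beside 28 of 96 miRNAs (29.2%) called in either direction and 19 (19.8%) called lower, and its share of the members is no more than that background. The differences of the other miR-17-92 members were -0.41 for miR-19b (SE 0.25), -0.31 for miR-20a (SE 0.25) and -0.13 for miR-19a (SE 0.24), with adjusted p from limma of 0.261, 0.402 and 0.709. In miR-106b-25 the differences were 0.53 for miR-106b (SE 0.27, limma adjusted p = 0.161), 0.11 for miR-93 and 0.10 for miR-25. The median was -0.36 over the 4 measured members of miR-17-92, 0.11 over the 3 of miR-106b-25 and -0.06 over all 96. Groups did not overlap for 2 of 7 members, miR-92a and miR-20a, beside 41 of 96 miRNAs (42.7%), so the members' share is no more than the background.

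The call of miR-92a rested on few samples. Without Ha-ras tumour replicate 1 its difference was -0.66 and without untreated control replicate 2 it was -0.70, with limma adjusted p of 0.0632 and 0.0596. With slide as a block it was -0.66 (limma adjusted p = 0.230), and within slide 2, 2 tumours against 1 control, it was -0.63. Scaling moved it further: when arrays were scaled over all mouse probes, detected or not, the median of all tested miRNAs shifted to 0.28, miR-92a stood at -0.21 (limma adjusted p = 0.740), and miR-106b was called higher at 1.06 (limma adjusted p = 0.0103). Under that scaling miR-92a was still lower than the median of all tested miRNAs and miR-106b higher, and miR-19a, miR-19b and miR-20a turned to 0.24, 0.16 and 0.26.

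In Ctnnb1 tumours compared with phenobarbital controls, 0 of 7 members were called by limma and 0 of 7 had an unadjusted p under 0.05, beside 8 of 96 miRNAs called (8.33%). Differences ran from -0.04 for miR-20a (SE 0.21) to 0.17 for miR-19a (SE 0.20) and miR-106b (SE 0.23), and that of miR-92a was 0.00 (SE 0.18). The medians were 0.01 for miR-17-92, 0.12 for miR-106b-25 and -0.05 for all tested miRNAs. Members' groups overlapped in every case, beside 14 of 96 miRNAs (14.6%) without overlap. No slide held both groups, so no value within a slide exists. A fit with slide as a block, in which the other groups link the slides, gave 0.61 for miR-106b (SE 0.48), 0.37 for miR-92a (SE 0.38) and 0.34 for miR-93 (SE 0.24), with 0 of 7 members called by limma. After normexp background correction all 7 differences were below 0, from -0.10 to -0.03, beside a median of -0.10 over all tested miRNAs.

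The tumour types were then set against each other. Besides genotype they differed in diet, and 2 of the 3 Ha-ras tumours were on another slide than all Ctnnb1 tumours. DEN dose and age may differ as well. miR-92a was higher in Ctnnb1 than in Ha-ras tumours by 0.75 (SE 0.18), 1.68-fold, with a limma adjusted p of 0.00982. miR-19b was higher by 0.62 (SE 0.21) and miR-19a by 0.61 (SE 0.20), with limma adjusted p of 0.0380 and 0.0357. miR-20a differed by 0.31 (SE 0.21, limma adjusted p = 0.291). In miR-106b-25 0 of 3 members were called, with differences of -0.28 for miR-106b (SE 0.23), -0.02 for miR-93 and 0.10 for miR-25. So 3 of 7 members were called, all higher and all of miR-17-92, beside 29 of 96 miRNAs called (30.2%) and 16 (16.7%) called higher. The groups of all 7 members overlapped, beside 18 of 96 miRNAs (18.8%) that did not. The medians were 0.61 for miR-17-92, -0.02 for miR-106b-25 and 0.08 for all tested miRNAs.

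These calls also depended on samples and scaling. Without Ha-ras tumour replicate 1 or without Ha-ras tumour replicate 2, 0 members were called, and without Ctnnb1 tumour replicate 1 only miR-92a was. Under scaling over all mouse probes miR-92a stood at 0.20, miR-19a at 0.20 and miR-19b at 0.07, none called by limma, against a median of all tested miRNAs of -0.32, and miR-106b was called lower at -0.83 (limma adjusted p = 0.0118). The white-cell miRNA miR-223 was also higher in Ctnnb1 tumours, by 0.82 (SE 0.23, limma adjusted p = 0.0188), and 2 of 5 leukocyte markers, miR-142-3p and miR-223, were measured well enough to test. Their summed level ran from 7.20 to 8.68 in Ha-ras tumours, 7.85 to 8.84 in Ctnnb1 tumours, 8.33 to 8.55 in phenobarbital controls and 7.68 to 8.66 in untreated controls. Of the 3 hepatocyte miRNAs, 1 was called: miR-122 was lower in Ctnnb1 tumours by limma, at -0.59 (SE 0.20, adjusted p = 0.0407). miR-194 stood at -0.51 (SE 0.23, limma adjusted p = 0.109) and miR-192 at 0.00. Their summed level ran from 13.29 to 14.32 in Ctnnb1 tumours, 14.10 to 14.58 in Ha-ras tumours, 14.10 to 14.35 in phenobarbital controls and 14.27 to 14.38 in untreated controls. The part of these markers in the difference of the members was not tested.

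**Figure D3:**
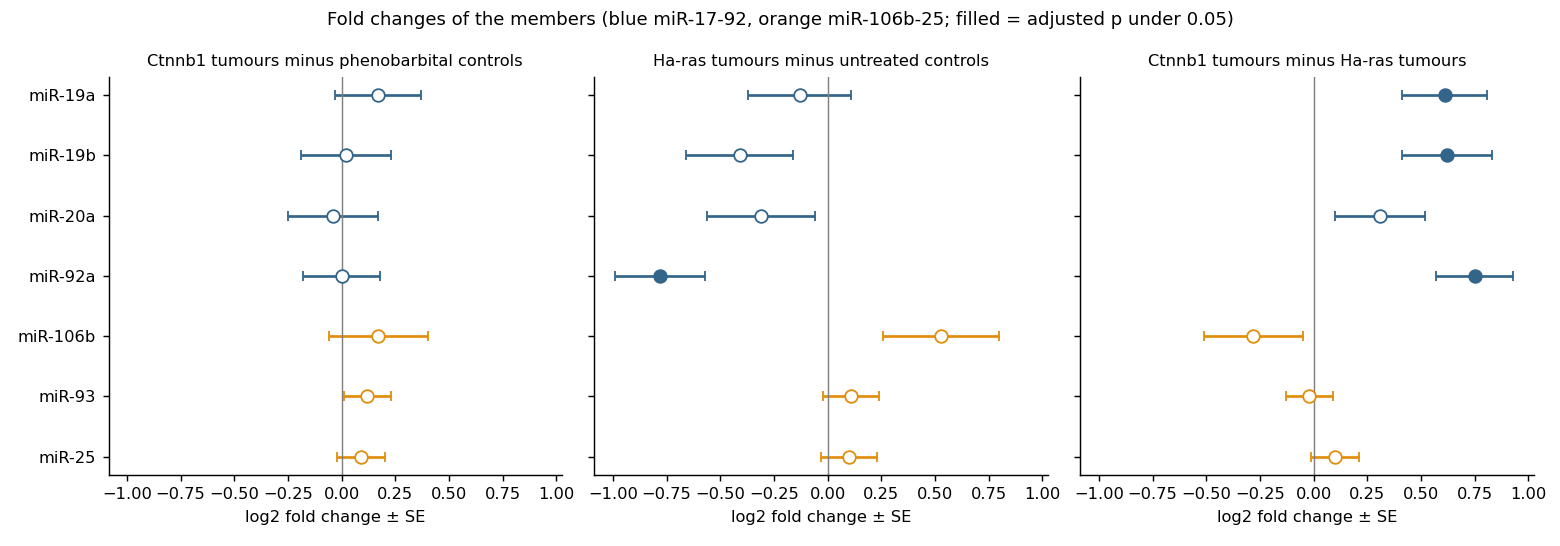
Log2 fold change (horizontal axis) with its SE for each measured member in the 3 comparisons with tumours; blue is miR-17-92, orange is miR-106b-25, and filled points have a limma adjusted p under 0.05. miR-92a is filled at -0.78 in the middle panel and at 0.75 in the right panel, where miR-19a and miR-19b are also filled, and no miR-106b-25 member is filled in any panel.

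The phenobarbital controls were then compared with the untreated controls. DEN, its dose and age and the length of treatment may also differ between them, so phenobarbital is not isolated. By limma 0 of 7 members and 0 of 96 miRNAs (0%) were called, and 0 members and 6 miRNAs had an unadjusted p under 0.05. Members' differences ran from -0.03 to 0.31, the highest for miR-19a (SE 0.24). The difference between the tumour effects of the arms, an interaction term, was called for 0 of 7 members and for 2 of 96 miRNAs (2.08%). For miR-92a it was 0.78 (SE 0.27, limma adjusted p = 0.164), so the fall in Ha-ras tumours is not shown to differ from the difference in Ctnnb1 tumours after adjustment.

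Pairs of members were also compared by within-array log2 ratios. Scaling cancels in a ratio where all probes are above the floor, but not fully in one with miR-25 or miR-93, whose dimmer probe was at the floor throughout. The same holds for ratios with miR-19a or miR-106b, with a probe at the floor on 6 and 4 of 16 arrays. With the brighter probe of each member alone, these ratios gave the same differences to 2 decimals whether scaled by the detected or by all mouse probes. The size of one ratio depends on the probes, and only its difference between groups is read. Of pairs, 6 had been chosen, of which 3 include miR-17 and could not be measured; the other 3 gave 9 tests over the comparisons with tumours, by two-sided exact permutation with Benjamini-Hochberg adjustment over the 9. The smallest p possible is 0.10 for 3 samples against 3 and 0.0167 for 7 against 3. None of the 9 passed after adjustment.

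miR-92a to miR-25, the pair with the miR-92 seed, had ratios of 0.65, 0.73 and 1.0 in Ha-ras tumours and 1.90, 1.72 and 1.39 in untreated controls. Phenobarbital controls had 1.48, 1.58 and 1.53, and Ctnnb1 tumours ran from 1.03 over 1.40 to 1.83. The Ha-ras tumours were lowest, below all 13 other samples. The difference from untreated controls was -0.88 (exact p = 0.10, the smallest possible, adjusted 0.300), and the Ctnnb1 tumours exceeded them by 0.65 (exact p = 0.0167, the smallest possible, adjusted 0.150). Between Ctnnb1 tumours and phenobarbital controls the ratio differed by -0.09 (exact p = 0.567). Under scaling over all mouse probes the 3 differences were -0.60, 0.38 and 0.02, and the Ha-ras tumours lay below the untreated controls but overlapped the Ctnnb1 tumours. With the brighter probes alone they were -1.06, 0.57 and -0.30, and the Ha-ras tumours lay below both groups. Within slide 2 the Ha-ras difference was -1.04, and within slide 1 the Ctnnb1 tumours exceeded the 1 Ha-ras tumour by 0.79, both with too few arrays for a test.

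miR-20a to miR-93, a pair with the miR-17 seed, had ratios of 0.76, 0.80 and 0.74 in Ha-ras tumours and 1.20, 1.20 and 1.15 in untreated controls. Phenobarbital controls had 1.20, 1.37 and 1.20, and Ctnnb1 tumours ran from 0.50 over 1.10 to 1.55. The Ha-ras tumours lay below all controls and within the range of the Ctnnb1 tumours. The difference from untreated controls was -0.42 (exact p = 0.10, adjusted 0.300), and that between the tumour types was 0.33 (exact p = 0.167, adjusted 0.360). Under scaling over all mouse probes these were -0.13, with overlap between Ha-ras tumours and untreated controls, and 0.06. With the brighter probes alone they were -0.56, without overlap, and 0.33. Between Ctnnb1 tumours and phenobarbital controls this ratio differed by -0.16 (exact p = 0.483, adjusted 0.621), with overlap. That difference was -0.04, with overlap, under scaling over all mouse probes. It was -0.37 with the brighter probes alone (permutation adjusted p = 0.0750), where all Ctnnb1 tumours lay below the phenobarbital controls. miR-19a to miR-19b, both of miR-17-92, differed by 0.27 between Ha-ras tumours and untreated controls (exact p = 0.200), by 0.16 between Ctnnb1 tumours and phenobarbital controls and by 0.00 between the tumour types, with overlap throughout. For this pair the brighter probes alone gave 0.11, 0.15 and 0.21 in the same order, also with overlap. Scaling over all mouse probes gave 0.08, 0.00 and 0.13 for it, again with overlap.

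Further pairs, chosen after the data were seen because miR-17 was not measured, are described without a test. miR-92a to miR-106b had ratios of 0.14, 0.11 and 0.06 in Ha-ras tumours and 1.66, 1.19 and 1.39 in untreated controls, a difference of -1.31, or 2.48-fold. Phenobarbital controls had 1.21, 1.21 and 1.49, and Ctnnb1 tumours ran from 0.69 over 1.23 to 1.52, so the Ha-ras tumours lay below all 13 other samples. miR-20a to miR-106b, a pair with the miR-17 seed, had 0.17, 0.14 and -0.22 in Ha-ras tumours and 1.04, 0.59 and 0.99 in untreated controls, and here Ctnnb1 tumour replicate 5 lay lower still, at -0.32. The ratio of the means of the clusters was 0.48 ± 0.07 (SD, n = 3) in Ha-ras tumours, 1.14 ± 0.18 (n = 3) in untreated controls, 1.21 ± 0.08 (n = 3) in phenobarbital controls and 1.12 ± 0.23 (n = 7) in Ctnnb1 tumours. Its difference between Ha-ras tumours and untreated controls was -0.65, and -0.50 under scaling over all mouse probes, both without overlap. Between the tumour types it was 0.64 without overlap, and 0.49 with overlap under that scaling. The brighter probes alone gave -0.80 and 0.63, without overlap.

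The difference also lay inside miR-17-92. miR-92a to miR-20a had ratios of -0.03, -0.03 and 0.27 in Ha-ras tumours, below the 0.62, 0.60 and 0.40 of untreated controls and the 0.46, 0.41 and 0.54 of phenobarbital controls, while the Ctnnb1 tumours ran from 0.16 over 0.56 to 1.0. miR-19b to miR-20a overlapped in all groups, with means of 1.02 ± 0.24 (SD, n = 3) in Ha-ras tumours and 1.12 ± 0.33 (n = 3) in untreated controls. Set out by seed instead of by cluster, miR-92a and miR-25, of one seed, stood at -0.78 and 0.10 in Ha-ras tumours against untreated controls, and miR-20a, miR-106b and miR-93, of another, at -0.31, 0.53 and 0.11.

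**Figure D4:**
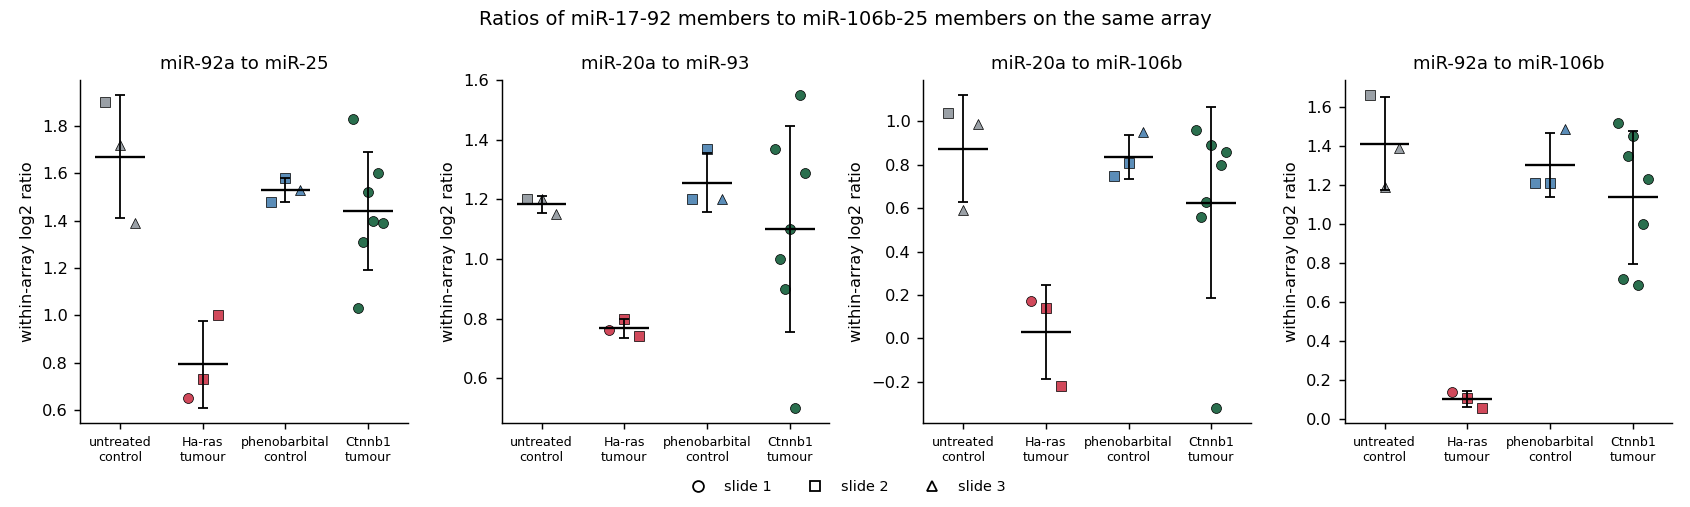
Within-array log2 ratio (vertical axis, a separate scale in each panel) of 4 pairs across the clusters, by group; the marker shape gives the slide, and bars give the mean ± SD (n = 7 Ctnnb1 tumours, 3 in the other groups). The Ha-ras tumours lie below all 13 other samples for miR-92a to miR-25, at 0.65 to 1.0, and for miR-92a to miR-106b, at 0.06 to 0.14.

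Across the 16 arrays, the levels of members of one cluster correlated more closely at the median than those of members of different clusters, but the ranges overlapped. Pearson's r of log2 levels was 0.58 to 0.89 (median 0.73) over the 6 pairs within miR-17-92, 0.69 to 0.89 (median 0.79) over the 3 pairs within miR-106b-25 and 0.00 to 0.71 (median 0.38) over the 12 pairs between them. After each group's mean was taken out, the medians were 0.76, 0.86 and 0.66. The ranges were then 0.47 to 0.90, 0.79 to 0.92 and 0.38 to 0.75, in the same order. All values of an array share its scaling and its RNA, which by itself moves them together.

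Among the 65 other miRNAs measured on all arrays, those most like the mean of miR-17-92 were miR-20b (r = 0.84 over 16 arrays), miR-15a (0.78) and miR-16 (0.75). Those most like the mean of miR-106b-25 were miR-140* (0.82), let-7i (0.72) and the erythroid miRNA miR-144 (0.69). With each group's mean taken out, r was 0.88 for miR-20b but only 0.58 for miR-15a and 0.55 for miR-16. For miR-140*, let-7i and miR-144 it was 0.80, 0.84 and 0.78. miR-20b belongs to the paralog on the X chromosome and differs from miR-20a at 2 of 23 bases, and whether its probes also bind miR-20a was not tested. Of 5 listed miRNAs of that paralog or with a shared seed (miR-106a, miR-18b, miR-20b, miR-363 and miR-32), all on the array, it was the only one detected on any array. It differed by -0.19 between Ha-ras tumours and untreated controls (SE 0.19, limma adjusted p = 0.455), with all 3 tumours below the controls.

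Markers of other cell types were read beside these results. The erythroid miRNAs miR-451 and miR-144, 2 of 3 listed that could be tested, differed by 0.25 and 0.33 between Ha-ras tumours and untreated controls, neither called by limma. Their summed level ran from 10.51 to 12.40 in Ha-ras tumours, 10.31 to 12.29 in untreated controls, 11.68 to 12.16 in phenobarbital controls and 10.92 to 12.03 in Ctnnb1 tumours, so the groups overlapped. Of 5 mesenchymal markers 2 were tested. miR-199a-3p fell by 1.51 in Ha-ras tumours (SE 0.25, limma adjusted p = 0.000509) and by 1.16 in Ctnnb1 tumours (SE 0.21, limma adjusted p = 0.00187), each against its controls. miR-143 fell by 0.68 in Ha-ras tumours (SE 0.19, limma adjusted p = 0.0146). It was tested only because all 3 untreated controls detected it, and it stood at the floor in both tumour groups, so this call depends on filter and floor. The summed level of both markers was 5.80 to 5.89 in Ha-ras tumours, 6.50 to 7.45 in untreated controls, 5.88 to 6.56 in Ctnnb1 tumours and 7.07 to 7.17 in phenobarbital controls. The part of these markers in the fall of miR-92a was not tested. The endothelial marker miR-126-3p, 1 of 2 listed that was tested, differed by -0.30 in Ha-ras tumours against untreated controls (SE 0.14, limma adjusted p = 0.141). In Ctnnb1 tumours against phenobarbital controls it differed by -0.28 (SE 0.12, limma adjusted p = 0.154), without overlap.

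**Figure D5:**
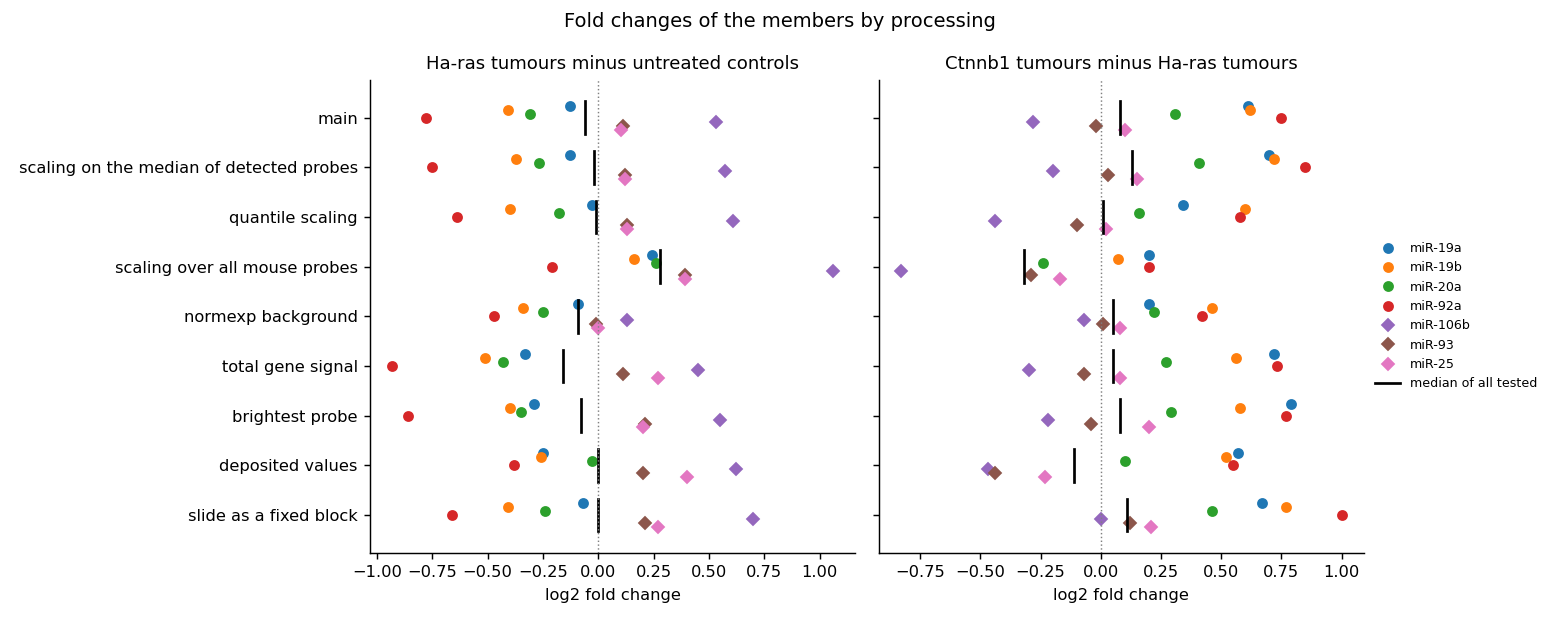
Log2 fold change (horizontal axis) of each measured member under 9 ways of processing (rows), for Ha-ras tumours against untreated controls (left) and Ctnnb1 against Ha-ras tumours (right); circles are miR-17-92, diamonds are miR-106b-25, and the black bar is the median of all tested miRNAs. On the left miR-92a is lowest under each, and scaling over all mouse probes moves the black bar to 0.28 and the members with it.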

How the data were processed

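Total RNA (25 ng per array) was end-labelled with Cy3, per the labels' protocols, with 1 array for each of the 16 samples. The deposited intensity values were made by the authors with Agilent Feature Extraction 10.7.3.1 (protocol miRNA_107_Sep09), per the file headers; the background-subtracted processed signal was used. The deposited table of log2 values served as an alternative; R 2.14.1 is named in the submitters' processing notes, and how the table was normalised is not stated there or in the labels. Of it, the log2 scale was read from the values, and its handling of low values stays unknown.

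Outlier spots were dropped (101 of the members over all arrays) and the remaining spots of a probe averaged. Each array was scaled by its 75th percentile of 117 probes (386 to 1248 before scaling), and signals were raised to the floor, taken to log2 and averaged over the 2 probes of a miRNA. Spots of a member's probe on an array varied by 5.55% to 15.5%, which with the number of arrays limits the precision. limma 3.58.1 (R 4.3.3) tested the 96 miRNAs in 1 fit of 4 group means (lmFit, eBayes), with Benjamini-Hochberg adjustment over the 96 and a threshold of 0.05; the fit was tested on simulated data. Ratios were tested by exact permutation in SciPy 1.17.1.

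The members, lists and pairs were chosen with earlier results of these data known. The text names all 9 members, the listed relatives and markers, and the 3 miRNAs most like each cluster's mean. Alternatives changed the scaling, background, signal column, probe summary, floor, filter, samples in the fit, slide and replicate block, or left out each sample. Sequences and coordinates are RefSeq's, and coordinates of the array's own build were not used.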

Additional observations from a re-analysis of the deposited data

Results flagged for a closer look

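In the 7 Ctnnb1 tumours, the levels of the members and the within-array ratios were searched for a sample far from the others, 14 measures in all. One was found, by a gap of 0.68 of the group's whole range, above Dixon's 95% critical value for 7 samples. The log2 ratio of miR-20a to miR-106b was -0.32 in Ctnnb1 tumour replicate 5, while the other 6 tumours ran from 0.56 to 0.96. In this tumour miR-20a was at 5.87 and miR-106b at 6.19, while miR-19b, of the same cluster as miR-20a, was at 7.98, among the higher values. Chance flags about 5% of groups for each measure, and 14 measures were searched, so 1 flag may arise by chance. The cause was not tested.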

How the results depend on the processing

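Calls among the members depended on the processing. The count of members called between Ha-ras tumours and untreated controls, 1 as reported, was 0 in the deposited values, without the filter, with slide as a block and within slide 2, and 0 to 1 when 1 sample was left out. Between the tumour types, 3 as reported, it was 2 under quantile scaling and in the deposited values, 1 under scaling over all mouse probes, normexp background, total gene signal, only the groups compared and slide as a block, 0 without the filter and within slide 1, and 0 to 3 when 1 sample was left out. Under scaling over all mouse probes the 1 member called was miR-106b in each comparison, and miR-92a was not called. miR-106b was higher in Ha-ras tumours than in untreated controls, at 1.06, and lower in Ctnnb1 than in Ha-ras tumours, at -0.83. Without the filter more miRNAs enter the adjustment, and the log2 differences were as reported. Over all alternatives miR-92a ran from -0.93 to -0.21 in Ha-ras tumours against untreated controls (limma adjusted p = 0.00666 to 0.740) and from 0.20 to 1.0 between the tumour types (0.00188 to 0.647), with its sign kept in each.

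Differences that changed sign were all uncalled. Scaling over all mouse probes gave 0.19 for miR-20a (Ctnnb1 tumours against phenobarbital controls), 0.24, 0.16 and 0.26 for miR-19a, miR-19b and miR-20a (Ha-ras tumours against untreated controls), and -0.24 and -0.17 for miR-20a and miR-25 (between tumour types). miR-20a in Ctnnb1 tumours against phenobarbital controls also turned to 0.11 with scaling on the median, 0.08 in the deposited values, 0.18 with slide as a block, and, when 1 sample was left out, ran from -0.16 to 0.05. miR-93 between the tumour types turned to 0.03 with scaling on the median, 0.01 with normexp, 0.12 with slide as a block and within slide 1, and ran from -0.09 to 0.04 without 1 sample. In Ctnnb1 tumours against phenobarbital controls, normexp gave -0.10 for miR-19a, -0.04 for miR-19b and miR-106b, -0.05 for miR-25 and -0.03 for miR-93. The median of all tested miRNAs was -0.10 with normexp in that comparison. There miR-19b also turned to -0.06 with total gene signal, -0.04 with the brightest probe and -0.11 in the deposited values, and ran from -0.05 to 0.10 without 1 sample. Normexp gave -0.01 for miR-93 in Ha-ras tumours, the deposited values gave -0.23 for miR-25 between the tumour types, and miR-25 in Ha-ras tumours ran from -0.03 to 0.17 without 1 sample. The cause was not tested.

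Of the 9 ratio tests, 3 reached the threshold with total gene signal, at adjusted p of 0.050, the threshold itself, and 0 in the other alternatives. In Ctnnb1 tumours against phenobarbital controls these were miR-20a to miR-93, at -0.31, and miR-92a to miR-25, at -0.35. The other was miR-92a to miR-25 between the tumour types, at 0.64. In Ha-ras tumours against untreated controls, both pairs had a permutation adjusted p of 0.180 with total gene signal. For Ctnnb1 tumours against phenobarbital controls, miR-19a to miR-19b turned to -0.05 with normexp, and miR-20a to miR-93 and miR-92a to miR-25 to 0.08 and 0.02 in the deposited values. The latter was also 0.02 when all mouse probes set the scale. For ratios, that scaling, the median scaling and the brightest probe with all-probe scaling were chosen after seeing the data. miR-92a to miR-25 kept its direction in Ha-ras tumours against untreated controls, from -1.20 with total gene signal to -0.47 with normexp.

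With the replicate number as a block within each arm, miR-92a in Ha-ras tumours stayed at -0.78 (limma adjusted p = 0.0368), miR-20a in Ctnnb1 tumours turned to 0.04, and the calls of members within the arms stayed as reported. Same-numbered samples correlated at 0.04, 0.13 and -0.67 in the phenobarbital arm and at 0.59, -0.71 and -0.11 in the other. Differently numbered samples of an arm ran as widely, from -0.57 to 0.70. With so few controls, these correlations cannot decide whether same-numbered samples share an animal, which the sources leave unstated.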
